A study of Mus musculus with 6 samples.

Results

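Small leucine-rich proteoglycans and the large proteoglycan versican were followed in mouse left ventricle with cardiomyocyte-specific overexpression of RBM20, an RNA-binding protein that regulates splicing in the heart. The members were chosen by gene symbol, as Bgn, Dcn, Aspn, Lum, Fmod, Prelp, Omd, Ogn and Vcan, and all 9 were found among the 31273 genes of the expression table. Polyadenylated RNA was sequenced from 3 libraries labelled as cardiomyocyte-specific RBM20 overexpression and from 3 libraries labelled as control. The study design describes a tamoxifen-inducible knock-in model. The labels give neither the Cre driver, the age, the strain and the tamoxifen treatment of each group, nor whether controls carried a Cre transgene or the knock-in allele. The unit is TPM, in which read numbers are corrected for gene length and brought to a fixed total per library, so that levels of different genes can be set side by side.

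Small leucine-rich proteoglycans are secreted proteins whose leucine-rich repeats bind collagen, and several of them control how collagen fibrils assemble. Their class I members carry chondroitin or dermatan sulfate chains or, as asporin, usually none, and class II members can carry keratan sulfate. Versican binds hyaluronan and carries many chondroitin sulfate chains, and it forms the loose matrix of developing and injured tissue. In the heart, fibroblasts are a main source of decorin, lumican and other members.

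Rbm20 itself followed the genotype labels, with 320.7, 913 and 907 TPM in overexpression replicates 1, 2 and 3, against 74.9, 90.9 and 79.5 TPM in control replicates 1, 2 and 3. Overexpression replicate 1 stood apart, because it had the lowest Rbm20 of its group and was the only library with the Y-linked Ddx3y above 0 (88.1 TPM). Its X-linked Xist was at 0.0172 TPM, against 62.6 and 57.2 TPM in overexpression replicates 2 and 3. Control libraries had 34.4 to 40.2 TPM of Xist. By Ddx3y and Xist this library differed in sex from every other library, and no test was adjusted for sex. Esr1, the gene of an estrogen receptor whose ligand-binding domain is used in tamoxifen-inducible Cre proteins, stood at 217.8, 53.0 and 199 TPM in overexpression libraries, against 0.415, 0.234 and 0.3 TPM in control libraries. Whether those reads came from a transgene was not tested. The sample titles begin with cre in the overexpression group and with cki in the control group, and the groups were taken from the genotype labels. Libraries held an estimated 50980000 to 90050000 counted reads in the overexpression group and 41640000 to 70570000 in the control group. Mitochondrially encoded transcripts took 36.7% to 41.0% of the TPM in overexpression libraries and 48.3% to 52.0% in control libraries. The log2 difference over the 12404 genes tested had a median of 0.55 in TPM. Calls without mitochondrially encoded genes are counted in the last section, but the part of the mitochondrial share in the median itself was not tested. A second scaling divided each library by the median, over genes, of its ratio to a geometric-mean library (median-of-ratios scaling, called rescaling here), which brought that median to 0.01. Each member is given under both.

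Of the 9 members, 5 were higher and 1 was lower with RBM20 overexpression in TPM, as called by limma at an adjusted p under 0.05 over all genes tested. In the same comparison 59% of all tested genes were called higher and 9.09% lower, so the count of increases was near the background. After rescaling, 4 members were higher and 2 were lower, against 22.2% of all genes called higher and 24% called lower. Higher under both scalings were Bgn, Vcan, Lum and Aspn, and Ogn was lower under both. Without overexpression replicate 1, the library that stood apart, the log2 differences in TPM were 2.46 for Bgn, 3.63 for Vcan, 1.20 for Lum, 1.20 for Aspn and -0.42 for Ogn, and all 5 calls remained. The median log2 difference of the members was 0.48 in TPM and -0.02 after rescaling, against 0.55 and 0.01 over all genes tested. All 9 members reached the expression filter of a mean of 1 TPM over all libraries, and each averaged 1 TPM or more in control libraries alone. Groups did not overlap for 5 members that were higher and 1 that was lower in TPM, against 62.1% and 10.4% of all genes. After rescaling they did not overlap for 3 higher members (Bgn, Aspn and Vcan) and 3 lower ones (Dcn, Ogn and Omd), against 28.3% and 28.7% of all genes.

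**Figure D1:**
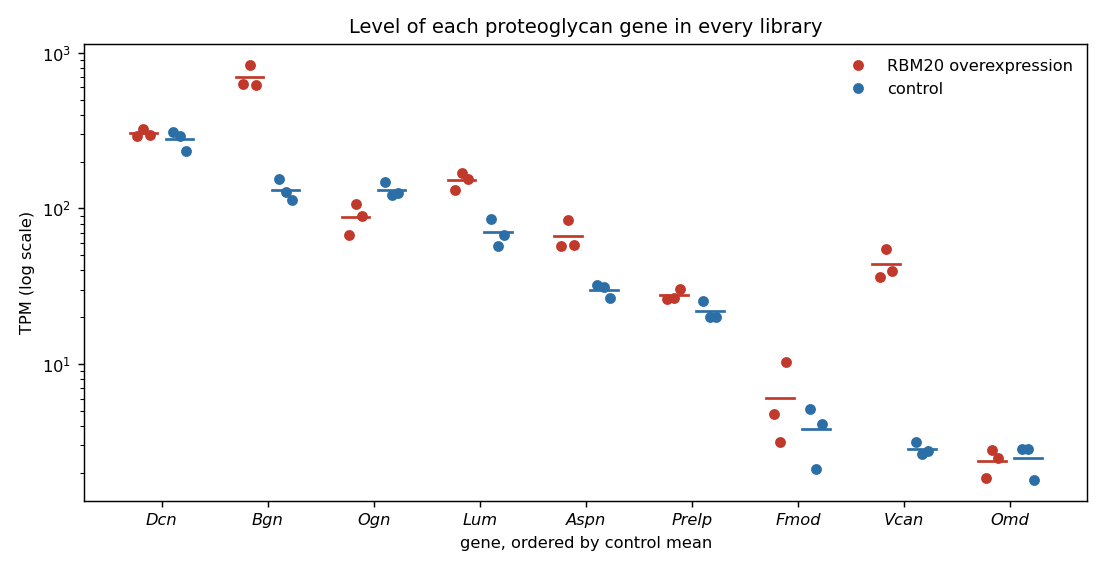
TPM (log axis) of each gene in every library, with overexpression libraries in red on the left and control libraries in blue on the right of each pair, horizontal bars at the group means, and genes ordered by control mean. The red points of Vcan (36.5 to 55.1 TPM) and Bgn (625 to 839 TPM) lie above all blue points (2.66 to 3.15 and 113 to 156 TPM), and those of Ogn lie below.

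Biglycan, encoded by Bgn, is a class I member that binds collagen and, when released from the matrix, is known to act on Toll-like receptors. Bgn stood at 630.2, 839 and 625 TPM in overexpression replicates 1, 2 and 3, against 156, 127 and 113 TPM in control replicates 1, 2 and 3. Every overexpression library lay above every control library. The means were 698 ± 122 TPM in overexpression and 132 ± 21.6 TPM in control libraries (SD, n = 3 each), a 5.29-fold increase. The log2 difference was 2.39 (SE 0.15, limma adjusted p = 1.42e-05) in TPM and 1.77 (SE 0.137, limma adjusted p = 5.58e-05) after rescaling. Bgn lies on chromosome X at 73483602 to 73495933 on the plus strand (GRCm38, GENCODE M21).

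Decorin, encoded by Dcn, is the closest relative of biglycan and binds collagen I. Its level was not called different in TPM. Dcn stood at 290.4, 324 and 299 TPM in overexpression libraries, against 311, 293 and 233 TPM in control libraries, and the groups overlapped. The log2 difference was 0.13 (SE 0.117, limma adjusted p = 0.336) in TPM. After rescaling it was -0.49 (SE 0.111, limma adjusted p = 0.00819), and Dcn was then called lower. The ratio of Bgn to Dcn within a library does not depend on how libraries are scaled. It was 2.17, 2.59 and 2.09 in overexpression libraries and 0.5, 0.433 and 0.484 in control libraries. Bgn thus exceeded Dcn in all 3 overexpression libraries and was below it in all 3 control libraries (exact two-sided permutation test of the log2 ratio, p = 0.1, the smallest that 3 against 3 allows).

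Asporin, encoded by Aspn, is a class I member that is known to bind collagen and TGF-beta. Aspn stood at 57.1, 84.0 and 57.9 TPM in overexpression libraries, against 32.1, 31.3 and 26.5 TPM in control libraries, with no overlap. The means were 66.3 ± 15.3 and 29.9 ± 3.01 TPM (SD, n = 3 each), a 2.22-fold increase. The log2 difference was 1.10 (SE 0.16, limma adjusted p = 0.000462) in TPM and 0.49 (SE 0.131, limma adjusted p = 0.0167) after rescaling. The call after rescaling ended without control replicate 2 (limma adjusted p = 0.0512) or control replicate 3 (limma adjusted p = 0.0692). Exons of Aspn overlap those of Cenpp on the opposite strand in GENCODE M21, and Cenpp was at 0.599 to 1.90 TPM in overexpression libraries and 0.925 to 1.71 TPM in control libraries.

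Among class II members, lumican (Lum), which limits the thickness of collagen fibrils, was higher. Lum stood at 132, 168 and 154 TPM in overexpression libraries, against 86.1, 57.0 and 67.4 TPM in control libraries, again with no overlap in TPM. The means were 151 ± 17.9 and 70.2 ± 14.8 TPM (SD, n = 3 each), a 2.16-fold increase. The log2 difference was 1.11 (SE 0.156, limma adjusted p = 0.000381) in TPM. After rescaling it was 0.49 (SE 0.171, limma adjusted p = 0.0463), and the groups overlapped, with 106 to 132 in overexpression and 67.2 to 108 in control libraries. That call ended without overexpression replicate 2, overexpression replicate 3, control replicate 2 or control replicate 3 (limma adjusted p = 0.113 to 0.134).

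The other class II members gave no call that held under both scalings. Prelp, which encodes a basic protein that links collagen to basement membranes, stood at 26.0, 26.6 and 30.3 TPM in overexpression libraries, against 25.4, 19.9 and 20 TPM in control libraries. The groups did not overlap, by a margin of less than 1 TPM. Its log2 difference was 0.34 in TPM (SE 0.129, limma adjusted p = 0.0452) and -0.27 after rescaling (SE 0.147, limma adjusted p = 0.177). The call in TPM ended without any 1 library except control replicate 1, at limma adjusted p-values of 0.0536 to 0.148. Fmod encodes fibromodulin, which shares a collagen binding site with lumican, and was the most variable member. Fmod stood at 4.74, 3.14 and 10.3 TPM in overexpression libraries, against 5.16, 2.10 and 4.14 TPM in control libraries. The high value came from overexpression replicate 3, and the groups overlapped (log2 difference 0.48, SE 0.38, limma adjusted p = 0.28). Omd encodes osteomodulin, a keratan sulfate proteoglycan best known from bone. It was the lowest member of the overexpression group, at 1.85, 2.80 and 2.48 TPM in overexpression libraries, against 2.83, 2.86 and 1.80 TPM in control libraries. The groups overlapped in TPM. The difference on the log2 scale was -0.04 (SE 0.196, limma adjusted p = 0.849), and rescaling gave -0.48 (SE 0.183, limma adjusted p = 0.0619) with no overlap. An estimated 70 to 183 counted reads per library lay behind Omd and at least 183 behind every other member.

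Osteoglycin (Ogn), also called mimecan, is a class III member found in the heart matrix, and it was the only member called lower in TPM. Ogn stood at 67.2, 106 and 90.0 TPM in overexpression libraries, against 148, 121 and 126 TPM in control libraries, with no overlap. The means were 87.8 ± 19.6 and 132 ± 14.3 TPM (SD, n = 3 each), and the ratio of means was 0.667. The log2 difference was -0.60 (SE 0.163, limma adjusted p = 0.0108) in TPM and -1.22 (SE 0.165, limma adjusted p = 0.000682) after rescaling. Leaving out each library in turn gave -0.75 to -0.42 in TPM, with limma adjusted p-values of 0.00598 to 0.0336.

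Versican (Vcan) showed the largest difference of the 9 members under both scalings. Vcan stood at 36.5, 55.1 and 39.6 TPM in overexpression libraries, against 3.15, 2.66 and 2.75 TPM in control libraries. The lowest overexpression library was thus far above the highest control library. The means were 43.7 ± 9.98 and 2.85 ± 0.263 TPM (SD, n = 3 each), a 15.3-fold increase. The log2 difference was 3.52 (SE 0.169, limma adjusted p = 5.88e-06) in TPM and 2.97 (SE 0.147, limma adjusted p = 1.44e-05) after rescaling, and it stayed at 3.34 to 3.63 in TPM with each library left out in turn. Vcan lies on chromosome 13 at 89655312 to 89742509 on the minus strand (GRCm38, GENCODE M21). Versican is made in isoforms that differ by long exons for chondroitin sulfate attachment, and gene totals do not show which isoform was present.

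**Figure D2:**
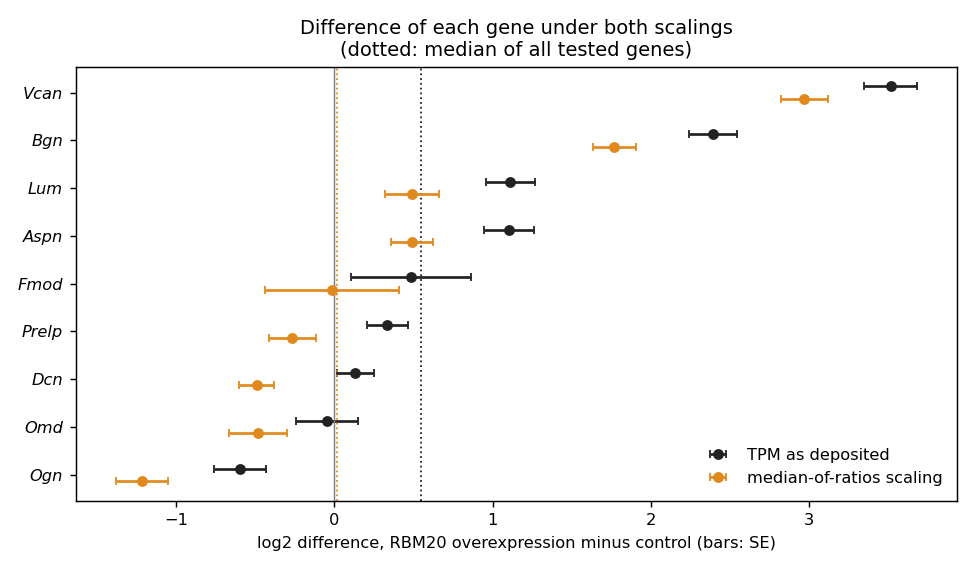
Log2 difference (overexpression minus control) of each gene with its SE, in TPM as deposited (black) and after median-of-ratios scaling (orange), with dotted lines at the median of all tested genes (0.55 and 0.01). Vcan, Bgn, Lum and Aspn lie right of 0 under both scalings and Ogn lies left of 0 under both.

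The sequences before the start sites of Bgn and Vcan, the members that rose most, and of Aspn and Ogn, members of 1 gene cluster on chromosome 13 that moved in opposite directions, are shown as the 250 bases before each RefSeq start (GRCm38.p6). Capitals mark matches on either strand to TATAAA for the TATA box, to TGANTCA for AP-1, to CATTCC for TEAD factors, to GTCTAGAC for SMAD proteins and to GGGCGG for the GC box. The Bgn stretch is chrX:73483351-73483600 on the plus strand, Vcan is chr13:89742513-89742762 on the minus strand, Aspn is chr13:49544193-49544442 on the plus strand and Ogn is chr13:49607765-49608014 on the plus strand.
Bgn: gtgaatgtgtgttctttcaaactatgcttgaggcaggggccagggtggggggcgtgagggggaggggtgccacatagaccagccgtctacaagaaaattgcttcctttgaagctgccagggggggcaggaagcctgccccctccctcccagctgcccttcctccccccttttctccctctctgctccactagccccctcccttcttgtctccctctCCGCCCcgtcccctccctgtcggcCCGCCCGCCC
Vcan: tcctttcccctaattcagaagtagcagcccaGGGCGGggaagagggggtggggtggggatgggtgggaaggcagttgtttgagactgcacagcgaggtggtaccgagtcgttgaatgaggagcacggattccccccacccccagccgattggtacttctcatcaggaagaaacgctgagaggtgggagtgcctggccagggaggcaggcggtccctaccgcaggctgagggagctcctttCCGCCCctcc
Aspn: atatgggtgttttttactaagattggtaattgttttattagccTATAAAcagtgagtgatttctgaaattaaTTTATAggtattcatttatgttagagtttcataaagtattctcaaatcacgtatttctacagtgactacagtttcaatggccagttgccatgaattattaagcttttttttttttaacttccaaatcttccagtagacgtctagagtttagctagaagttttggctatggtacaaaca
Ogn: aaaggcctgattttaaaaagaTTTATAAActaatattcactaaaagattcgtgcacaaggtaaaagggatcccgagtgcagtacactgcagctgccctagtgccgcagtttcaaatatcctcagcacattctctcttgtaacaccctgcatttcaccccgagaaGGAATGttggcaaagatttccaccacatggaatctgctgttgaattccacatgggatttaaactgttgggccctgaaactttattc
The Bgn stretch held 3 GC boxes, 2 of them overlapping each other, and the Vcan stretch held 2, whereas 32.7% of the 32851 RefSeq promoters had at least 1. GC content was 64.4% for Bgn and 62.4% for Vcan, 30.0% for Aspn and 42.0% for Ogn, against a median of 52.4% over all promoters. Aspn held 2 matches to the TATA box letters at positions -207 and -178 (first base, counted back from the start), and Ogn held 2 overlapping ones, at -229 and -227. Such a match was present in 12.4% of promoters, and no match was near the start. Ogn also held the TEAD letters, which 12.6% of promoters had. None of the 4 stretches held the AP-1 or SMAD letters, which occurred in 6.75% and 0.167% of promoters. A match is a description of letters and not a measured binding site. RefSeq promoters were matched for 7 of the 9 members, all but Dcn and Lum.

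Several members lie in clusters of related genes. Aspn, Omd and Ogn follow each other on chromosome 13 with gaps of 14.9 kb and 15.2 kb, and Dcn and Lum lie 47.0 kb apart on chromosome 10 (GRCm38, GENCODE M21). The ratio of Aspn to Ogn was 0.85, 0.79 and 0.644 in overexpression libraries, against 0.217, 0.258 and 0.211 in control libraries. The ratio of Lum to Dcn was 0.456, 0.518 and 0.515 in overexpression libraries, against 0.277, 0.194 and 0.289 in control libraries. Omd lies between Aspn and Ogn, while Dcn and Lum are next to each other among the members. Neither ratio overlapped between groups, and neither depends on the scaling (exact two-sided permutation test of the log2 ratio, p = 0.1 each, the smallest possible, and 0.12 after adjustment over the 6 pairs compared, which were chosen after their values were seen). Fmod and Prelp lie 115.8 kb apart on chromosome 1, and their ratio overlapped between groups (exact permutation p = 0.8).

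The order of the members differed between groups. In overexpression libraries the order of mean TPM was Bgn, Dcn, Lum, Ogn, Aspn, Vcan, Prelp, Fmod and Omd, and only the ranges of Ogn and Aspn overlapped as neighbours. In control libraries it was Dcn, Bgn, Ogn, Lum, Aspn, Prelp, Fmod, Vcan and Omd. There the ranges of Bgn and Ogn overlapped, as did those of Fmod and Vcan and of Vcan and Omd. Vcan was thus among the lowest members in control libraries and above Prelp in every overexpression library.

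The make-up of the family was compared as the share of each gene in the summed TPM of the 9 genes, which is also independent of scaling between libraries. Bgn made up 50.6%, 52.1% and 47.8% of the sum in overexpression libraries, against 20.2%, 19.3% and 19.0% in control libraries. Dcn made up 22.1% ± 1.69 in overexpression and 41.4% ± 2.82 in control libraries, Ogn 6.29% ± 0.79 and 19.6% ± 1.4, and Vcan 3.13% ± 0.264 and 0.426% ± 0.0325 (SD, n = 3 each). The groups did not overlap for these genes or for Prelp and Omd (exact two-sided permutation p = 0.1 each, unadjusted for the 9 shares compared, and the smallest possible). Lum kept a share of 10.9% ± 0.718 in overexpression and 10.4% ± 1.5 in control libraries, and Aspn one of 4.74% ± 0.42 and 4.46% ± 0.293 (SD, n = 3 each), with overlapping groups. Shares of 1 sum are tied to each other, so the gain of Bgn alone lowers the shares of the others. The sum was 1246, 1609 and 1309 TPM in overexpression libraries, against 769, 658 and 595 TPM in control libraries. Without Bgn it was 616 to 770.1 TPM in overexpression and 482 to 614 TPM in control libraries.

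**Figure D3:**
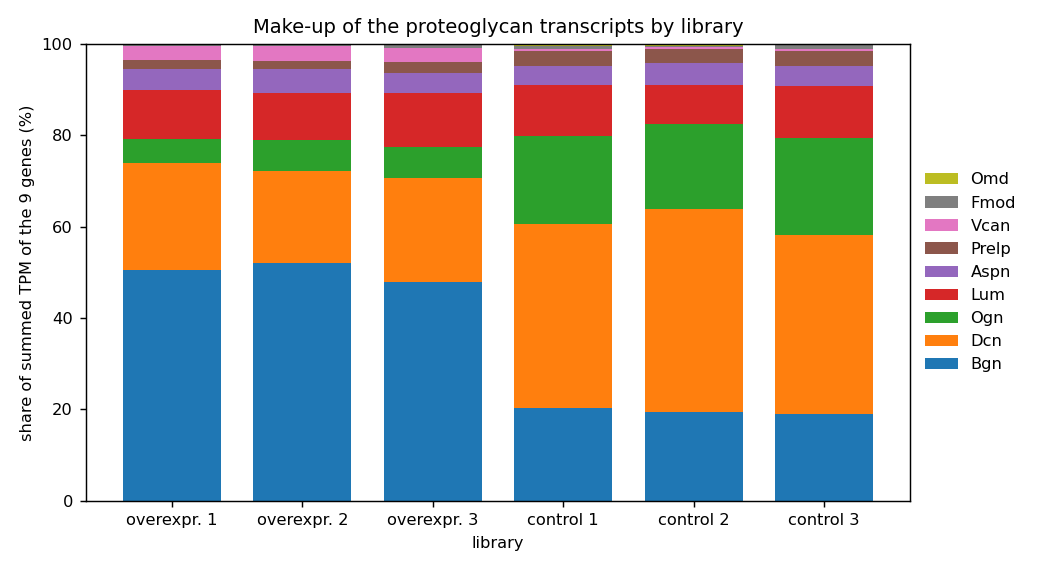
Share (%) of each of the 9 genes in their summed TPM, with 1 stacked bar per library and the overexpression libraries on the left. Bgn takes 47.8% to 52.1% in overexpression and 19.0% to 20.2% in control libraries, and the bands of Dcn and Ogn are narrower in overexpression libraries.

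In bulk tissue, fewer or more cells of a type and less or more RNA per cell cannot be told apart. Fibroblast markers without any of the 9 members were higher in 8 of 12 genes and lower in 1 in TPM, and higher in 4 and lower in 3 after rescaling. The shares are 66.7% higher and 8.33% lower in TPM, near the 59% and 9.09% of all tested genes. Their summed level was 1153 to 1382 TPM in overexpression and 1059 to 1417 TPM in control libraries, so the groups overlapped, and Gsn alone gave 767 TPM in overexpression and 1030.1 TPM in control libraries on average. The 4 markers higher under both scalings were Mfap5, Pcolce, Mfap4 and Pi16. Their ratios of mean TPM, overexpression over control, were 7.28, 5.65, 4.70 and 2.34. Dpt, Gsn and Islr were the 3 lower after rescaling. The fibroblast receptor gene Pdgfra averaged 26.1 ± 2.21 TPM in overexpression and 16.9 ± 1.34 TPM in control libraries (SD, n = 3 each), with a log2 difference of 0.60 in TPM (limma adjusted p = 0.0021) and no call after rescaling. Relative to the summed fibroblast markers of the same library, the log2 ratio differed between groups by 3.88 for Vcan, 2.37 for Bgn, 1.09 for Lum, 1.09 for Aspn and -0.64 for Ogn. Relative to Pdgfra these differences were 3.29, 1.78, 0.50, 0.50 and -1.23. None of these ratios overlapped between groups (exact permutation p = 0.1 each, the smallest possible). Ratios to the 4 markers that rose under both scalings were not tested.

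Calls in the lists of other cell types are set beside the shares over all tested genes. Those were 59% higher and 9.09% lower in TPM, and 22.2% and 24% after rescaling. All 8 macrophage markers were higher in TPM and 7 were higher after rescaling. Their summed level was 987, 756 and 535 TPM in overexpression replicates 1, 2 and 3, against 255 to 350.2 TPM in control libraries. In that sum every overexpression library lay above every control library. Endothelial markers were called in 0 of 8 genes in TPM and lower in 3 after rescaling, and their sums overlapped, at 444 to 515 TPM in overexpression and 370 to 466 TPM in control libraries. Of 7 tested markers of pericytes or smooth muscle, 2 were higher and 1 was lower, 4 were lower after rescaling, and the sum was 619 to 673 TPM in overexpression and 599 to 730 TPM in control libraries. Cardiomyocyte markers were lower in 5 of 8 genes and higher in 1, and lower in 7 after rescaling, and summed to 22108 to 24953 TPM in overexpression and 29588 to 32383 TPM in control libraries. Of 6 genes listed as atrial, 4 (Nppa, Myl1, Myl4 and Myl7) were higher in TPM, and 3 (all but Myl7) after rescaling. Kcnk3 was lower under both scalings, and Sln was not called. The list summed to 3317 to 4793 TPM in overexpression and 225 to 329 TPM in control libraries. Of that, Nppa gave 2542 to 4137 TPM in overexpression and 92.5 to 180.2 TPM in control libraries. Myl1 gave 525 to 710 TPM and 44.4 to 52.2 TPM. Whether these genes mark atrial cells here was not tested. Myl7 varied within the overexpression group, at 35.4, 3.07 and 116 TPM, against 3.45, 1.08 and 3.13 TPM in control libraries, and the groups overlapped. Of 8 cartilage or tendon markers, 5, among them Col2a1 and Tnmd, were below 1 TPM in every library. Of the 3 tested, Scx and Sox9 were higher under both scalings, and Comp was not called under either. Scx averaged 11.4 ± 2.55 TPM in overexpression and 3.48 ± 0.436 TPM in control libraries, and Sox9 7.15 ± 5.21 and 0.652 ± 0.52 TPM (SD, n = 3 each). Sox9 passed the expression filter only through the overexpression group, and its groups overlapped after rescaling. Comp averaged 4.81 ± 3.28 and 3.73 ± 1.26 TPM (SD, n = 3 each). The sum over the list was 22.4 to 24.8 TPM in overexpression and 7.0 to 8.74 TPM in control libraries. Epicardial markers summed to 11.9 to 32.4 TPM in overexpression and 6.23 to 23.1 TPM in control libraries, and Schwann cell markers to 11.9 to 13.7 TPM and 9.98 to 13.1 TPM. The part of any of these cell types in the differences of the members was not tested.

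Genes around the proteoglycans were described from 8 lists, with 99 genes tested. Of these, 75 were higher and 4 lower in TPM, and 56 were higher and 9 lower after rescaling. These are 75.8% and 4.04% in TPM, against 59% and 9.09% of all tested genes, and 56.6% and 9.09% after rescaling, against 22.2% and 24%. A control mean of 1 TPM or more was reached by 87 of the 99. The median of their log2 differences was 1.21 (TPM) and 0.62 (rescaled), against 0.55 and 0.01 over all genes tested. Other relatives of the small leucine-rich proteoglycans went both ways. Of 5 tested relatives, Tsku was higher and Podn lower under both scalings, Ecm2 was lower after rescaling, and Chad and Nepn were not called. A control mean of 1 TPM or more was reached by 3 of the 5, and not by Tsku or Nepn. Tsku encodes tsukushi, a secreted antagonist of BMP signals, and averaged 7.05 ± 2.34 TPM in overexpression and 0.97 ± 0.32 TPM in control libraries. Podn encodes podocan, which binds collagen, and averaged 7.51 ± 0.676 and 12.0 ± 0.996 TPM (SD, n = 3 each). Ecm2 averaged 9.17 ± 0.821 and 10.6 ± 1.97 TPM.

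Collagen partners rose together. Of 16 tested genes 15 were higher and 1 lower in TPM, and 14 were higher and 1 lower after rescaling, with median log2 differences of 2.32 and 1.73. The shares higher were 93.75% in TPM and 87.5% after rescaling, against 59% and 22.2% of all tested genes. A control mean of 1 TPM or more was reached by 15 of the 16. Col12a1 passed the filter only through the overexpression group and is among those called higher under both scalings. Col3a1 averaged 329 ± 94.4 TPM in overexpression and 28.5 ± 6.76 TPM in control libraries, and Col1a1 134 ± 33.6 and 15.9 ± 3.43 TPM (SD, n = 3 each). Fbln1, the gene that fell, averaged 23.0 ± 3.10 and 34.4 ± 1.27 TPM. Set against the summed TPM of Col1a1, Col1a2 and Col3a1 in the same library, Bgn was lower in overexpression libraries by 0.69 on the log2 scale, Lum by 1.97, Dcn by 2.96 and Ogn by 3.70. Vcan alone was higher, by 0.82, and none of these 5 ratios overlapped between groups (exact permutation p = 0.1 each, the smallest possible). All 8 small leucine-rich proteoglycans were lower per unit of fibrillar collagen RNA in overexpression libraries, Bgn, Lum and Aspn included.

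Enzymes that build the sugar chains are read against the 59% of all tested genes that were higher in TPM and the 22.2% after rescaling. Of 20 tested genes for the chain linker and for chondroitin or dermatan sulfate, 17 were higher and 0 lower, and 10 were higher and 1 lower after rescaling, which is 85% higher in TPM and 50% after rescaling. A control mean of 1 TPM or more was reached by 17 of the 20. B3galt6, Chst3 and Xylt1 passed the filter only through the overexpression group, and they are among those called higher in TPM. Chpf, a chondroitin polymerizing factor, averaged 20.1 ± 2.06 TPM in overexpression and 5.64 ± 0.755 TPM in control libraries (SD, n = 3 each). Csgalnact2, which starts chondroitin chains, averaged 32.1 ± 4.76 and 11.7 ± 0.659 TPM. Of 8 tested keratan sulfate genes 6 were higher and 1 lower, and 3 were higher and 1 lower after rescaling. With 8 genes, these are 75% higher in TPM and 37.5% after rescaling. The gene that fell was St3gal3, a sialyltransferase, at 8.25 ± 2.59 TPM in overexpression and 33.8 ± 3.4 TPM in control libraries (SD, n = 3 each).

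Hyaluronan genes and proteases were called higher in TPM at shares of 66.7% and 60%, near the 59% of all tested genes. After rescaling the shares were 66.7% and 40%, against 22.2% of all tested genes. Of 6 tested genes of hyaluronan and its binding proteins, 4 were higher and 0 lower under both scalings, and 4 of the 6 reached 1 TPM on average in control libraries. The genes that rose were Cd44, Hyal2, Has1 and Hmmr, of which Has1 and Hmmr averaged below 1 TPM in control libraries. Cd44, a hyaluronan receptor, averaged 25.3 ± 7.19 TPM in overexpression and 3.03 ± 1.75 TPM in control libraries, and the hyaluronidase gene Hyal2 27.0 ± 1.01 and 11.5 ± 1.25 TPM (SD, n = 3 each). Acan, the gene of the related proteoglycan aggrecan, and the link protein genes Hapln1 to Hapln4 stayed below 1 TPM in every library. Of 10 tested protease genes 6 were higher and 0 lower in TPM, and 4 (40%, against 22.2% of all genes) were higher and 1 lower after rescaling. A control mean of 1 TPM or more was reached by 8 of the 10, and Adamts8 and Adamts4 passed the filter only through the overexpression group. Adamts8 averaged 11.2 ± 2.74 TPM in overexpression and 0.218 ± 0.0782 TPM in control libraries, and Mmp14, a membrane-bound collagenase, 18.1 ± 1.96 and 5.97 ± 0.933 TPM (SD, n = 3 each).

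Ligands and receptors that these proteoglycans bind were higher in 14 of 18 tested genes and lower in 0 in TPM, and higher in 12 and lower in 1 after rescaling. The shares higher were 77.8% and 66.7%. C1qa, C1qb and C1qc were among the genes higher under both scalings, and C1qa was also counted among the macrophage markers. Over all tested genes 59% were higher and 9.09% lower in TPM, and 22.2% and 24% after rescaling. A control mean of 1 TPM or more was reached by 16 of the 18. Met and Bmp2 passed the filter only through the overexpression group. Both are among the genes called higher in TPM, and Met also after rescaling. Ccn2, a matricellular growth factor gene, averaged 937 ± 84.5 TPM in overexpression and 191 ± 50.7 TPM in control libraries, and the growth factor gene Tgfb2 26.5 ± 9.60 and 3.61 ± 0.534 TPM (SD, n = 3 each). Of 16 tested genes for heparan sulfate and other proteoglycan cores, 12 were higher and 1, the glypican gene Gpc1, was lower, and 8 were higher and 2 lower after rescaling. These are 75% higher in TPM and 50% after rescaling, against the same 59% and 22.2%. Prg4, the gene of lubricin, averaged 36.1 ± 10.2 TPM in overexpression and 5.75 ± 0.993 TPM in control libraries, and Col15a1, the gene of a basement membrane collagen with sugar chains, 116 ± 25.9 and 18.1 ± 5.64 TPM (SD, n = 3 each).

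**Figure D4:**
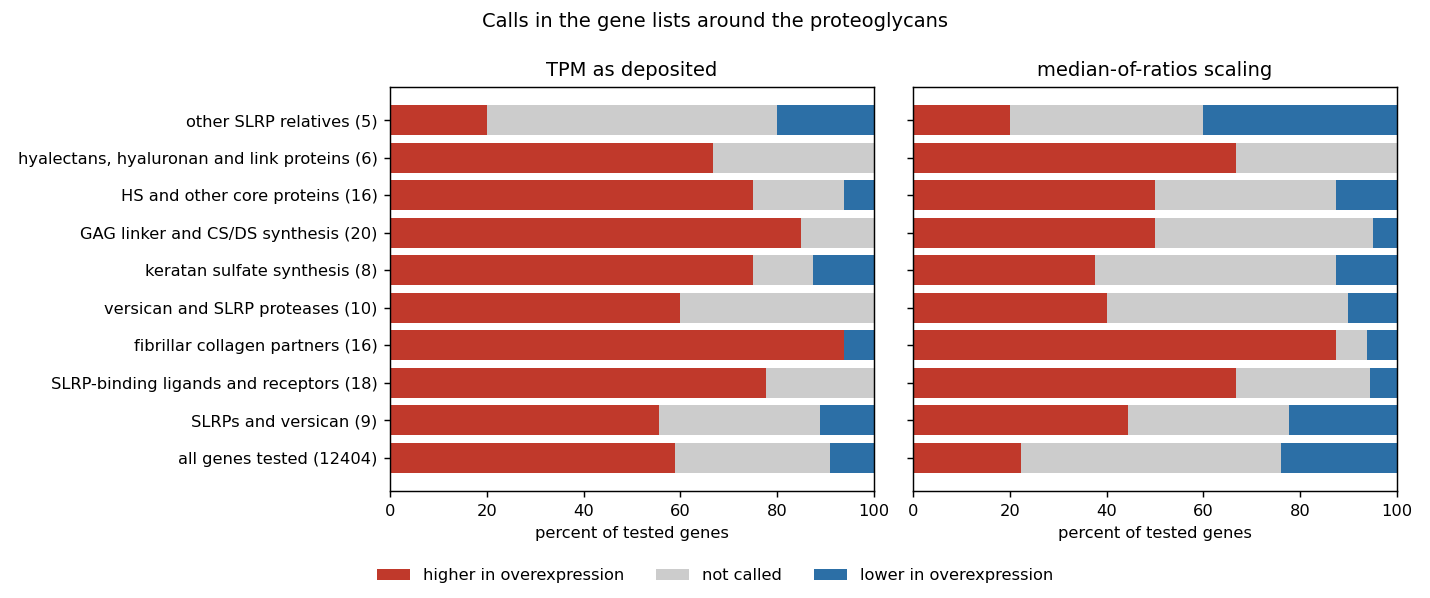
Percent of the tested genes of each list (number tested in brackets) that were called higher, not called or called lower with overexpression, in TPM (left panel) and after median-of-ratios scaling (right panel), where SLRP is small leucine-rich proteoglycan, GAG glycosaminoglycan, CS/DS chondroitin or dermatan sulfate and HS heparan sulfate. Of 16 collagen partners 15 and 14 were called higher, of the 9 proteoglycan genes 5 and 4, and of all genes 59% and 22.2%.

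The genes whose centred log2(TPM + 1) profile over the 6 libraries lay nearest to each member were found by root mean square distance, and they are named as a description. The nearest gene to Vcan was Klhl40 at a distance of 0.137, and the nearest to Bgn was Carhsp1 at 0.0634. Tbk1 was nearest to Aspn, Calm2 to Lum, P4ha2 to Dcn, Pcyt2 to Ogn, Itpr1 to Prelp, Higd1b to Omd and Nostrin to Fmod, at 0.0182 to 0.246. P4ha2, a collagen prolyl hydroxylase gene, was at 25.2, 28.6 and 26.7 TPM in overexpression libraries, against 27.5, 26.5 and 20.7 TPM in control libraries, close to the pattern of Dcn.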

How the data were processed

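The authors deposited TPM values with 1 row per gene symbol and 1 column per library. The submitters' processing notes list STAR-Fusion 1.11.0, GATK 4.2.6.1, edgeR 3.40.2 and featureCounts 2.0.3 beside build mm8, with no role stated. No source used here names the aligner, the annotation or the use of strand in counting, so reads of overlapping genes cannot be assigned with certainty. Reads per library were estimated from the most frequent products of low TPM values and GENCODE M21 exon lengths, as whole steps, with read ends possibly counted singly. Positions come from GENCODE M21 (GRCm38) and entered no test.

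Genes averaging 1 TPM or more over the 6 libraries entered the test. Differences of log2(TPM + 1) were tested two-sided with limma 3.58.1 (R 4.3.3, variance trend), with Benjamini-Hochberg adjustment over all of them and a threshold of 0.05. Folds are ratios of mean TPM, and differences on the log2(TPM + 1) scale understate changes of low genes. Shares and ratios used exact permutation tests over 20 assignments. P-values measure the spread between these libraries, which the labels do not describe as separate animals beyond a number in each title. The members and the lists were chosen with earlier results of these data known. The rule for named genes took the members, Rbm20, the 3 smallest p-values of each list and the nearest profiles, of which those nearest to the members' median profile are not reported here. Pdgfra, Gsn, Ddx3y, Esr1, Nppa, Myl1, Myl4, Myl7, Kcnk3, Sln, Scx, Sox9, Comp, B3galt6, Chst3, Xylt1, Adamts4, Col2a1, Tnmd, Cenpp, Fbln1, Gpc1, Ecm2, Acan and the link protein genes, Has1 and Chad were named outside the rule after their values were seen. So were Mfap5, Pcolce, Mfap4, Pi16, Dpt, Islr, Xist, C1qa, C1qb, C1qc, Met, Bmp2 and Col12a1. The limma step was also run on simulated data with known differences, in which equal numbers of genes were raised and lowered. The general shift of these data was not simulated, so that run does not show how reliable the calls are here. Figures used Python 3.11.15 and matplotlib 3.10.9. Splicing was not analysed here.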

Additional observations from a re-analysis of the deposited data

How the results depend on the processing

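No paired analysis was possible because the groups share no replicate number in the labels. Among the counts of members called higher, the alternatives to deposited TPM gave 4 or 5 of 9, and leaving out each library gave 4 to 5 in TPM and 2 to 4 after rescaling, with 2 without control replicate 2 or control replicate 3. Members called lower numbered 1 in TPM, 2 after median-of-ratios scaling and 2 under quantile normalization, and 2 to 3 after rescaling with a library left out. Over all genes, 7316 were higher and 1127 lower in TPM, against 2756 and 2974 after median-of-ratios scaling and 2963 and 2816 under quantile normalization. Without mitochondrially encoded genes 5382 were higher and 1796 lower. Of the listed genes around the members, 4 were lower in TPM, 9 after median-of-ratios scaling and 7 under quantile normalization. Dcn changed sign, at -0.49 after median-of-ratios scaling, -0.15 without mitochondrially encoded genes and -0.19 under quantile normalization. Prelp did so at -0.27 and -0.19 under median-of-ratios scaling and quantile normalization, and Fmod at -0.0157 and -0.0695. With a library left out, Omd ranged from -0.20 to 0.0724 in TPM and Fmod from -0.45 to 0.34 after rescaling, both across 0, with Fmod at 0.0783 without overexpression replicate 1 or control replicate 3 and at 0.206 without control replicate 1. The cause was not tested. Under quantile normalization Omd was called lower, at -0.56. The calls of Bgn, Vcan and Ogn kept their direction under each of the alternatives run. With 3 libraries per group an exact test cannot go below 0.1.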
